A study of Mus musculus with 8 samples.

Results

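Voltage-gated sodium and calcium channel genes were followed in the superior cervical ganglia of newborn mice. Membership was set by gene symbol alone: every row of the count table named Scn followed by a number and a, b or a1, or with a name starting with Cacn. This gave 40 genes of 23827 rows, 14 of sodium channels and 26 of calcium channels and their relatives. Of these, 33 had enough counts to be tested, 6 were detected at lower levels, and Cacng6 had 0 counts in all 8 libraries. The tissue came on postnatal day 1 from C57Bl6/n animals that all carried the KIF1Bb fl/fl allele, in which loxP sites flank part of the gene. The 4 control animals were DBHcre -/- and the 4 conditional knockout (cKO) animals DBHcre +/-. Dbh encodes the enzyme that makes noradrenaline, so this Cre is meant for noradrenergic cells and not for the glia, vessels and connective tissue of the same ganglion. Where it acted was not measured here. Each library was polyadenylated RNA from the ganglion pair of a single animal. The comparison asks how the transcripts of these channels differ when the motor protein KIF1B beta is targeted in sympathetic neurons.

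Sodium channels open when the membrane depolarises and carry the upstroke of the action potential. Each has a large alpha subunit, which forms the pore, and smaller beta subunits, which are single-pass membrane proteins with an immunoglobulin-like domain. Calcium channels are built around an alpha1 subunit, which forms the pore, with an intracellular beta and an extracellular alpha2delta subunit that raise the number of channels at the surface. In sympathetic neurons the N-type channel is known to carry most of the calcium current that triggers noradrenaline release. The gamma family holds a muscle channel subunit and several proteins better known as auxiliary subunits of AMPA-type glutamate receptors.

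The sequence before the annotated start is shown for the members that passed the test, Scn2b and Cacng5, and for Cacna1b, the member with the highest alpha1 level. Each run comes from the 250 bases before a RefSeq start on GRCm38.p6, 5′ to 3′. For Scn2b the last 94 of these lie in the first exon of a longer GENCODE transcript, and the 156 bases before that exon are printed. Capitals mark matches on either strand to any of the motifs searched. The GC box was searched as GGGCGG. The core of the TATA box was searched as TATAA. The E box of neural basic helix-loop-helix factors was searched as CAGCTG. The cyclic AMP response element was searched as TGACGTCA. No motif contains another. RefSeq lists 2 starts for Cacng5, and both are given.
Scn2b, chr9:45117626-45117781, plus strand: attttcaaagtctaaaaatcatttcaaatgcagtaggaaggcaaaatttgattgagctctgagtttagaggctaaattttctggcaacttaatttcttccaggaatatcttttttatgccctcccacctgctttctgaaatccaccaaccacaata
Cacng5, outer start, chr11:107915056-107915305, minus strand: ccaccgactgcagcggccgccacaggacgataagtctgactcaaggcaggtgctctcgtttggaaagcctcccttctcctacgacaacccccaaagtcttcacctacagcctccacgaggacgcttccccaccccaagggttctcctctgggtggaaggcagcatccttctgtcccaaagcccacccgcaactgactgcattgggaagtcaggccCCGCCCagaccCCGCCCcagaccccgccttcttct
Cacng5, inner start, chr11:107911363-107911612, minus strand: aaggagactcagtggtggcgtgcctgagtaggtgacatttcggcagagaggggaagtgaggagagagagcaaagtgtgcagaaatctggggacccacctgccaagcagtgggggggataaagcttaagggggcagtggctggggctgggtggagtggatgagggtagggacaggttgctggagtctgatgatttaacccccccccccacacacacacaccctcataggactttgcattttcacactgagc
Cacna1b, chr2:24763153-24763402, minus strand: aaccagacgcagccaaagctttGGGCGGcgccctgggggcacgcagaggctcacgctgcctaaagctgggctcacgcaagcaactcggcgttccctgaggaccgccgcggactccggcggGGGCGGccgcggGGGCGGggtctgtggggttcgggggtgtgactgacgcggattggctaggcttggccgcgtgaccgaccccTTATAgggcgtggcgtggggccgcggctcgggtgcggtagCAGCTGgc

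These windows differ in base composition. Over its 250 bases the Scn2b window was 38.4% G and C with a CpG ratio (observed over expected CpG) of 0.12, and it held no GC box and 1 TATA core, in the bases not printed. Cacna1b had 72.0% G and C, a CpG ratio of 0.92 and 3 GC boxes. The outer Cacng5 window held 2 GC boxes and the inner window held none of the motifs. RefSeq windows were found for 30 of the 40 members, 41 windows in all, with a median of 56.8% G and C against 52.4% over 32851 windows of the same length. GC boxes were in 36.6% of member windows and 32.7% of all windows, the TATA core in 17.1% and 22.8%, and the E box in 26.8% and 13.0%. The cyclic AMP response element was in 0 member windows and in 1.55% of all windows. Windows of 1 gene can overlap, and the matches describe sequence only.

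Total counts lay between 16214912 and 18114418 per library, and levels are given as CPM, the count scaled to a common library total after TMM normalization. Kif1b, the targeted gene, had between 933 and 1454 CPM in control and between 191 and 302 CPM in cKO ganglia, so every cKO library lay below every control library (log2 fold change -2.24, SE 0.18, edgeR adjusted p = 3.43e-04). The symbol covers both products of the gene, KIF1B alpha and beta. Markers of noradrenergic neurons were high in all libraries, with Th between 1150 and 1490 CPM and Dbh between 2030 and 2700 CPM. Of 14 sympathetic neuron markers 0 passed in edgeR, 3 had a negative and 1 a positive log2 fold change at an unadjusted p below 0.05, and DESeq2 passed 2 as lower. Slc6a2, the noradrenaline transporter, and Prph had the smallest p (log2 fold changes -0.51 and -0.42, edgeR adjusted p = 0.0545 and 0.0567). The 14 markers summed to between 20652 and 22220 CPM in control and between 17574 and 19248 CPM in cKO libraries. Markers passed in 1 of 9 for satellite glia and Schwann cells, 2 of 8 for vascular smooth muscle and pericytes, 3 of 6 for endothelium and 2 of 5 for fibroblasts, all of them higher in cKO ganglia. In the same order, an unadjusted p below 0.05 and a positive log2 fold change were found for 6, 8, 6 and 5 of these genes, and DESeq2 passed 6, 6, 5 and 4. In edgeR 0 passed of 2 cartilage, 3 chromaffin, 6 sensory neuron and 9 skeletal muscle genes. At an unadjusted p below 0.05 there were 0, 2, 1 and 1 of them, and DESeq2 passed 0, 1, 1 and 0. In such bulk tissue, fewer cells of a type and less RNA per cell cannot be told apart.

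Among all 14592 tested genes 397, or 2.72%, had an adjusted p below 0.05 in edgeR's quasi-likelihood test, and 1.12% passed and were lower in cKO ganglia. The 397 split into 234 higher and 163 lower genes, or 343 and 145 when scaled by library size alone. Of the 33 tested channel genes 2 passed, Scn2b and Cacng5, both lower in cKO ganglia, which is 6.06%. A count of 2 is too small to set the channel genes apart from the table. An unadjusted p below 0.05 was found in 10 channel genes (30.3%), against 16.8% of all tested genes. Of these, 6 had negative and 4 positive log2 fold changes. Control and cKO values did not overlap for 2 members that were lower, Scn2b and Cacng5, where 5.02% of all tested genes did so, and for 1 that was higher, Cacna1i, where 6.00% did so. DESeq2's Wald test passed 4 members, adding Scn7a and Cacna1h as higher, against 6.94% of all genes. The median log2 fold change was -0.167 over the 33 members, with 20 negative and 13 positive, and -0.001 over all tested genes. The median of the members was -0.283 without cKO 1 and -0.034 without cKO 2.

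**Figure D1:**
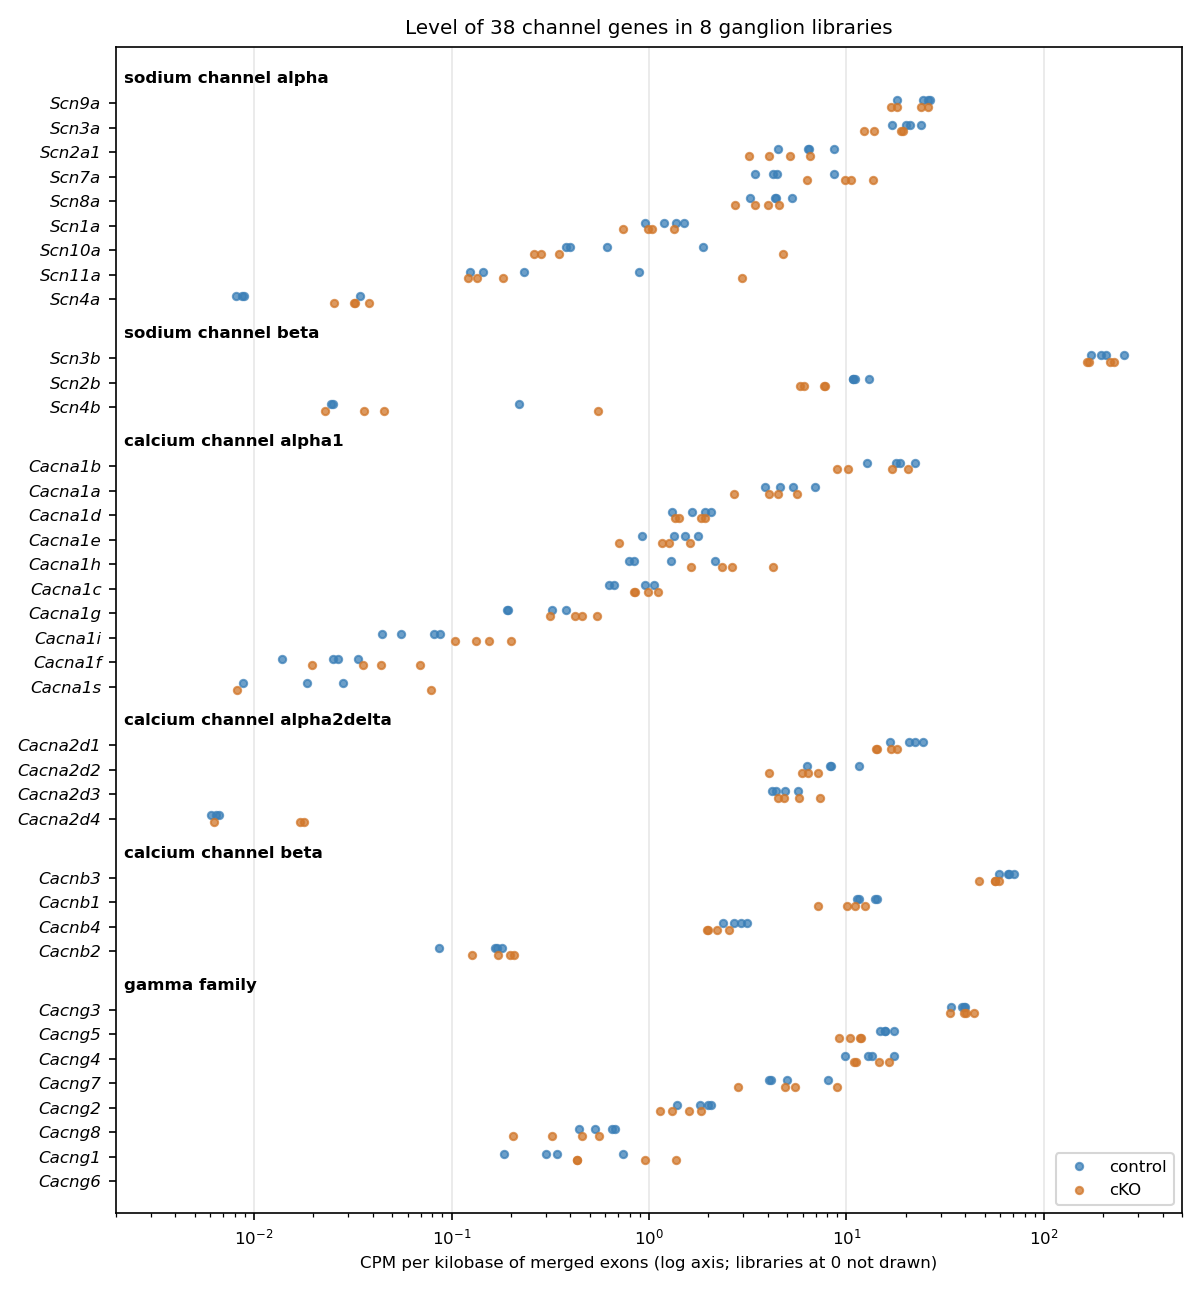
Level of 38 members per kilobase of merged exons in the 8 libraries, on a log axis, grouped by role, with control libraries in blue and cKO libraries in orange. Scn3b is the highest at 207 CPM per kilobase in control ganglia and the muscle genes Scn4a and Cacna1s are among the lowest, below 0.1.

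Among sodium channel alpha subunits, Scn9a and Scn3a held the highest levels per length. Divided by the merged exon length of each gene, control means were 23.7 ± 3.93 CPM per kilobase for Scn9a and 20.5 ± 2.81 for Scn3a (SD, n = 4), a pair whose order does not exceed their spread. Scn2a1 (the older symbol of Scn2a) followed at 6.50 ± 1.70, Scn7a at 5.21 ± 2.35 and Scn8a at 4.33 ± 0.834, again with overlapping spreads. Scn1a stood lower at 1.26 ± 0.238 CPM per kilobase. These are the channels known as NaV1.7, NaV1.3, NaV1.2, NaX, NaV1.6 and NaV1.1, of which NaV1.3 is best known from embryonic and newborn neurons.

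Scn9a, the pain-linked NaV1.7 gene that is also prominent in sympathetic neurons, had 332, 338, 229 and 311 CPM in control 1 to 4 and 329, 231, 303 and 215 CPM in cKO 1 to 4. The groups overlapped over nearly their full range (log2 fold change -0.17, SE 0.17). Scn3a had 260, 298, 212 and 250 CPM in control and 236, 171, 242 and 153 CPM in cKO libraries. All 4 cKO values lay below the control mean of 255 CPM, but they overlapped the lower control libraries (log2 fold change -0.35, SE 0.17). Scn2a1 had 110, 81.2, 57.4 and 82.1 CPM in control and 83.1, 40.8, 66.1 and 51.5 CPM in cKO libraries. Here too the groups overlapped (log2 fold change -0.45, SE 0.23, edgeR adjusted p = 0.377). Scn8a, the channel of the axon initial segment and nodes in mature neurons, stood at a log2 fold change of -0.23 (SE 0.18) and Scn1a at -0.29 (SE 0.20). Exons of Scn9a overlap those of Gm13629, an antisense gene with too few counts to be tested.

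Scn7a differed in sign from the other alpha subunits at these levels. It encodes NaX, an atypical relative that is not opened by voltage in the usual way and is known from Schwann cells and other glia as well as neurons. It had 63.6, 25.2, 31.3 and 32.7 CPM in control and 100.4, 46.1, 71.9 and 77.5 CPM in cKO libraries. Control 1 lay above cKO 2, so the groups overlapped, and the log2 fold change of 0.95 (SE 0.30) did not pass in edgeR (adjusted p = 0.126). Without control 1 it did (log2 fold change 1.31, edgeR adjusted p = 0.0169), as it did without control 1 and cKO 1 (1.13, adjusted p = 0.0176) and in DESeq2's Wald test (0.95, adjusted p = 0.0277). The 9 glial markers summed to between 873 and 1102 CPM in control and between 1170 and 1332 CPM in cKO libraries, without overlap. The sum was 926 and 1194 CPM in control 1 and cKO 1, where Scn7a was the highest of each group. It was 947 and 1297 CPM in control 2 and cKO 2, where Scn7a was the lowest. Of the 9 markers 6 had an unadjusted p below 0.05, all higher in cKO ganglia. Of these Mbp passed in edgeR (log2 fold change 0.74, adjusted p = 0.00817), a call lost without control 4 (log2 fold change 0.71). None of the 9 was at 0, and their part in the Scn7a values was not tested. Scn7a is the last gene of a sodium channel cluster on chromosome 2 (GRCm38), in which Scn3a, Scn2a1, Scn1a, Scn9a and Scn7a lie in that order from 65457118 to 66784914. Its 4 neighbours in the cluster had log2 fold changes from -0.45 to -0.17, and the difference from Scn7a was not tested.

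**Figure D2:**
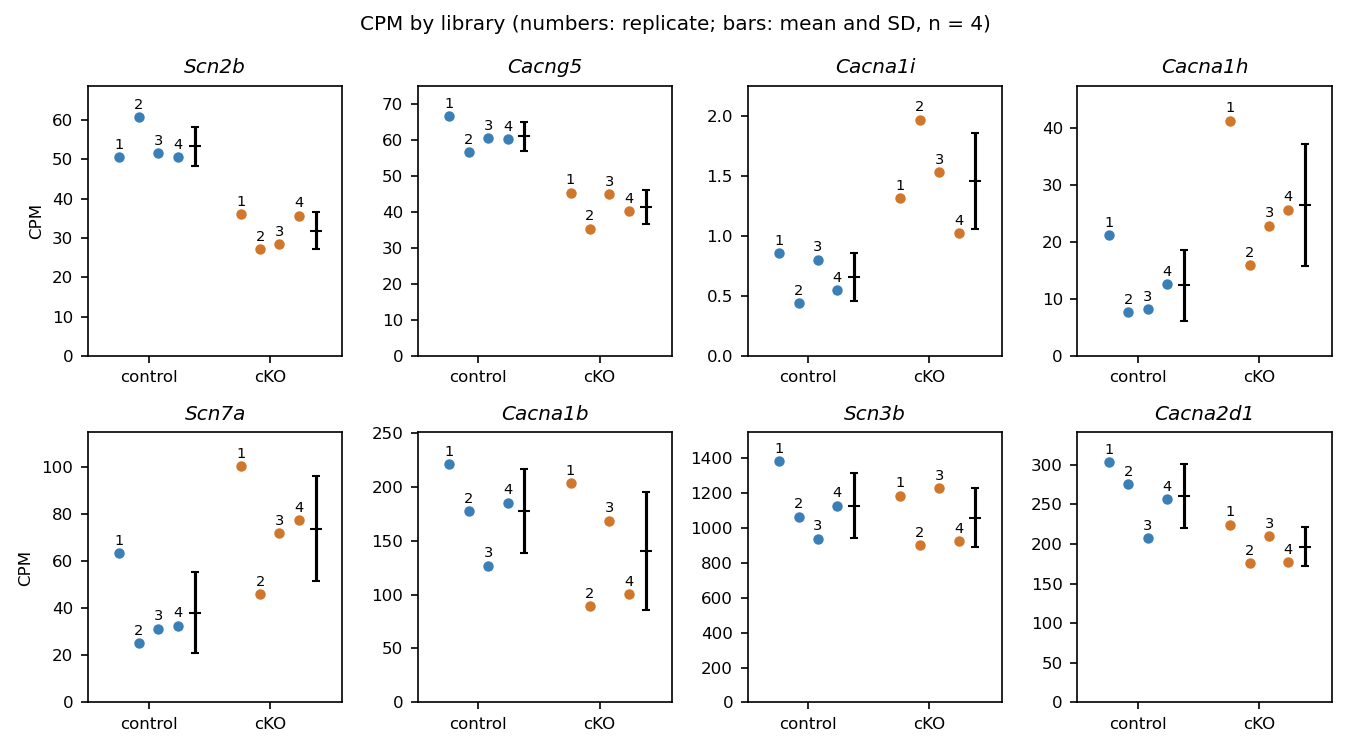
CPM in each library for 8 members, with the replicate number beside each point and the mean and SD (n = 4) of each group beside the points. For Scn2b and Cacng5 each cKO library lies below each control library, for Cacna1i each lies above, and for the other 5 genes the groups overlap.

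Scn2b, a sodium channel beta subunit that is linked to the alpha subunit by a disulfide bond, fell in cKO ganglia. It lies on chromosome 9 from 45117782 to 45130070 on the plus strand (GRCm38), its start being that of the longer transcript. Scn2b had 50.5, 60.7, 51.7 and 50.5 CPM in control 1 to 4. In cKO 1 to 4 it had 36.1, 27.1, 28.4 and 35.7 CPM. Every cKO library was lower than every control library, and the means were 53.4 ± 4.95 and 31.8 ± 4.73 CPM (SD, n = 4). On the log2 scale the difference was -0.75 (SE 0.13, edgeR adjusted p = 0.0166), or 0.596 of the control level. A two-sided exact permutation test gave p = 0.0286, the lower limit set by the 70 assignments of 8 libraries. The call was lost without control 2 (edgeR adjusted p = 0.0705), control 4 (0.0564) or cKO 3 (0.0556), while the log2 fold change with 1 library left out stayed between -0.83 and -0.68.

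Scn3b, another beta subunit, which is linked to the channel without a covalent bond, was the highest of all 40 members per length, at 207 ± 34.2 CPM per kilobase in control ganglia (SD, n = 4). It made up between 92.1% and 96.3% of the summed beta subunit level per kilobase in each of the 8 libraries. Scn3b had 1383, 1066, 940 and 1128 CPM in control and 1186, 902, 1229 and 926 CPM in cKO libraries, which overlapped (log2 fold change -0.09, SE 0.15). Scn4b, the neighbour of Scn2b on chromosome 9, stood at 0 to 18 counts in control and 2 to 51 counts in cKO libraries and was not tested. Scn2b thus went from 5.27% ± 0.98 to 3.38% ± 0.64 of the beta subunit level per kilobase (SD, n = 4), with control between 4.05% and 6.19% and cKO between 2.61% and 4.17%.

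Among calcium channel alpha1 subunits Cacna1b, the N-type gene, led at 17.9 ± 3.89 CPM per kilobase in control ganglia, followed by Cacna1a, the P/Q-type gene, at 5.20 ± 1.32 (SD, n = 4). Cacna1d (L-type) at 1.73 ± 0.336, Cacna1e (R-type) at 1.39 ± 0.358, Cacna1h (T-type) at 1.27 ± 0.638 and Cacna1c (L-type) at 0.824 ± 0.211 CPM per kilobase had spreads that overlapped from each to the next. Cacna1b had 221, 177, 127 and 185 CPM in control and 203, 89.1, 169 and 100.6 CPM in cKO libraries. The highest cKO library exceeded 3 of the 4 control libraries, and the log2 fold change of -0.34 (SE 0.26) did not pass in edgeR (adjusted p = 0.595). Cacna1a had 79.3, 52.3, 44.3 and 61.5 CPM in control and 64.3, 30.9, 46.3 and 51.1 CPM in cKO libraries (log2 fold change -0.30, SE 0.23). For Cacna1e it was -0.22 (SE 0.25).

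The L-type genes, whose channels couple depolarisation to gene expression, differed little between groups. Cacna1d had 26.1, 24.1, 16.4 and 20.7 CPM in control and 24.1, 17.9, 23.2 and 17.0 CPM in cKO libraries (log2 fold change -0.09, SE 0.17). Cacna1c, also the main calcium channel of smooth muscle, had 20.1, 14.2, 13.2 and 22.4 CPM in control and 21.0, 17.9, 23.6 and 17.9 CPM in cKO libraries (log2 fold change 0.20, SE 0.18). Both pairs of groups overlapped. Exons of Cacna1d overlap those of Chdh on the opposite strand, and reads there may come from either gene. Cacna1f, the L-type gene of the retina, had 2 to 5 counts in control and 3 to 11 in cKO libraries and was not tested.

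The T-type genes Cacna1g, Cacna1h and Cacna1i, whose channels open at low voltage, each had a positive log2 fold change, and none passed in edgeR. Cacna1i had 0.858, 0.439, 0.802 and 0.547 CPM in control and 1.31, 1.97, 1.53 and 1.025 CPM in cKO libraries. These values did not overlap but rested on 7 to 14 and 19 to 33 counts per library (log2 fold change 1.13, SE 0.30, edgeR adjusted p = 0.0769). Cacna1h had 21.2, 7.71, 8.19 and 12.7 CPM in control and 41.3, 15.9, 22.9 and 25.7 CPM in cKO libraries. Control 1 exceeded cKO 2, so the groups overlapped (log2 fold change 1.09, SE 0.35, edgeR adjusted p = 0.139). It passed without control 1 (log2 fold change 1.47, edgeR adjusted p = 0.0318), without control 1 and cKO 1 (1.18, adjusted p = 0.0297) and in DESeq2's Wald test (1.09, adjusted p = 0.0307). Cacna1g had 1.96, 1.94, 3.26 and 3.83 CPM in control and 4.29, 4.66, 3.18 and 5.56 CPM in cKO libraries, again overlapping (log2 fold change 0.68, SE 0.27, edgeR adjusted p = 0.221). In control ganglia these genes ranged from 0.0671 CPM per kilobase for Cacna1i to 1.27 for Cacna1h.

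T-type channels are also known from vascular smooth muscle. The 8 smooth muscle and pericyte markers summed to between 191 and 213 CPM in control and between 288 and 413 CPM in cKO libraries, and all 8 had a positive log2 fold change with an unadjusted p below 0.05. Notch3 and Pdgfrb passed in edgeR (log2 fold changes 0.79 and 0.74, adjusted p = 0.0285 and 0.0231), and DESeq2 passed 6. The Notch3 call was lost without control 2, 3 or 4 or cKO 2 or 3 (edgeR adjusted p up to 0.106), and the Pdgfrb call without control 2, 3 or 4 or cKO 1 or 3 (up to 0.0877). None of the 8 was at 0, and their part in the T-type values was not tested. The summed T-type level was highest in control 1 and cKO 1, at 24.0 and 46.9 CPM. It ranged from 10.1 to 17.0 CPM in the other control and from 22.6 to 32.3 CPM in the other cKO libraries. The marker sum was 205 CPM in control 1 and 288 CPM in cKO 1, the lowest of the cKO libraries. The markers differed in this: Notch3 (31.9 and 59.7 CPM) and Pdgfrb (45.5 and 70.6 CPM) were highest of their groups in control 1 and cKO 1. Acta2, Myh11, Tagln, Rgs5, Kcnj8 and Abcc9 were highest in other libraries, and Rgs5 had 67.6 CPM in cKO 1 and 159 CPM in cKO 2. In control 2 and cKO 2, where the summed T-type level was the lowest of each group, the marker sum was 206 and 413 CPM. Most of the summed T-type level was Cacna1h, which was lowest in cKO 2 at 15.9 CPM. Cacna1i was highest in cKO 2, at 1.97 CPM, and Cacna1g, at 4.66 CPM, was above cKO 1 and cKO 3. An exon of Tpsg1, a gene with too few counts to be tested, overlaps Cacna1h on the opposite strand.

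**Figure D3:**
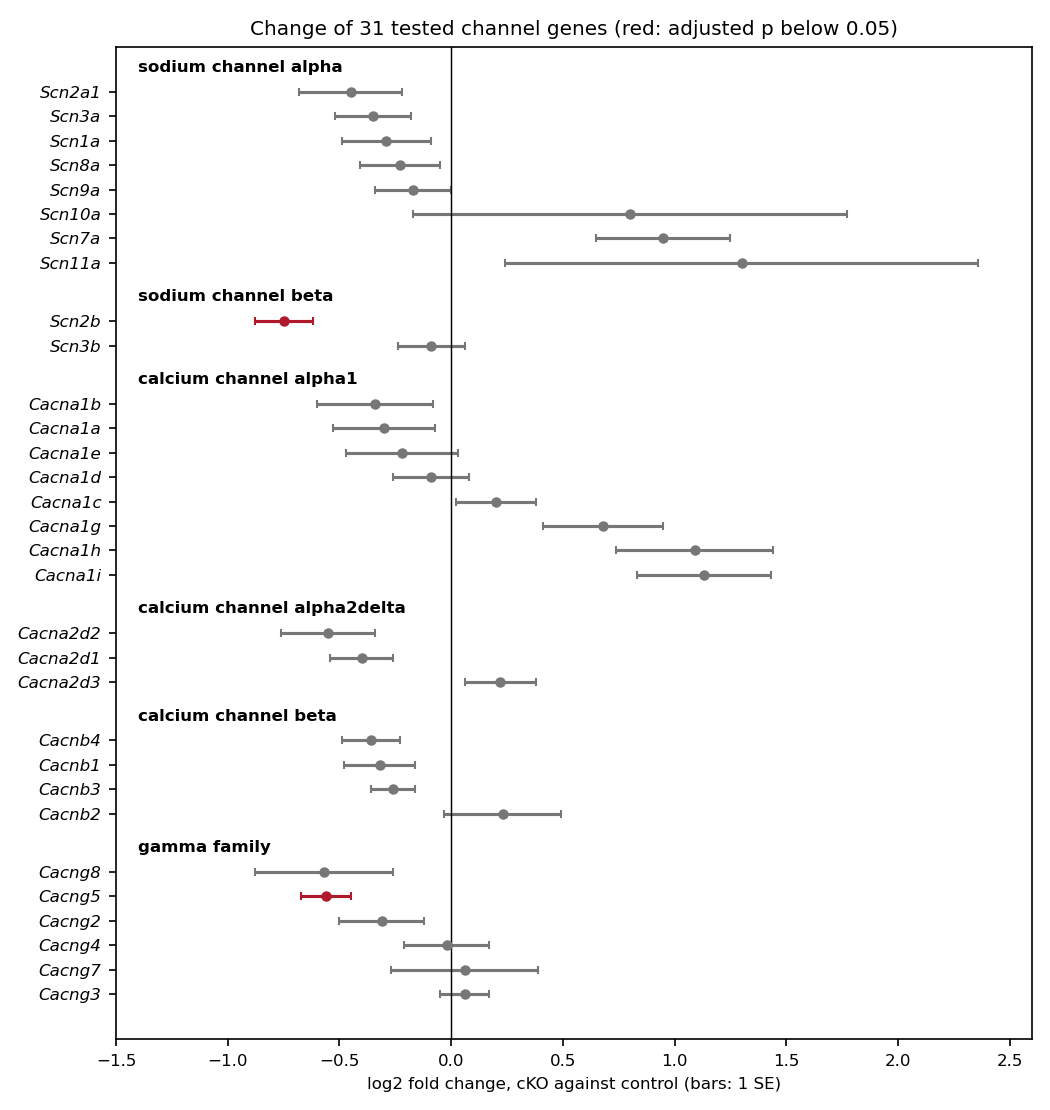
Log2 fold change of cKO against control for 31 of the 33 tested members, grouped by role, with bars of 1 SE. Scn2b and Cacng5, in red, passed the adjusted threshold, and the T-type genes and Scn7a lie to the right of 0 without passing.

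Within a library, the share of each subunit in the summed level per kilobase of its class does not depend on library size. Cacna1b made up 60.9%, 65.1%, 61.5% and 62.1% of the alpha1 level in control and 57.5%, 52.9%, 60.4% and 47.5% in cKO libraries. Cacna1h made up 5.94%, 2.89%, 4.04% and 4.32% in control and 11.9%, 9.64%, 8.35% and 12.4% in cKO libraries. Neither share overlapped between the groups, although both CPM values did. Shares of a class sum to 100%, so a higher share of Cacna1h lowers that of the others. Among sodium channel alpha subunits, Scn7a took between 5.12% and 12.1% in control and between 13.9% and 19.2% in cKO libraries. Scn2a1 took between 9.26% and 12.1% in control and between 7.04% and 9.18% in cKO libraries. Scn9a held 37.6% ± 1.4 and 35.7% ± 4.5 (SD, n = 4), and its lowest share, 29.4%, was in cKO 4. The share of Scn8a lay between 6.5% and 7.42% in control and between 5.97% and 6.42% in cKO libraries. That of Cacna2d3 in the alpha2delta level lay between 10.8% and 15.8% in control and between 17.2% and 26.5% in cKO libraries. The shares of Scn7a, Scn2a1, Scn8a and Cacna2d3 did not overlap either, nor did that of Cacng5, given below. Those of the other members reported by name overlapped. The gap was narrow for Scn2a1 (9.26% against 9.18%) and Scn8a (6.5% against 6.42%). A higher share of Scn7a lowers those of the other alpha subunits in the same way. Shares were not tested, and no such shares were computed over all genes to set beside them.

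**Figure D4:**
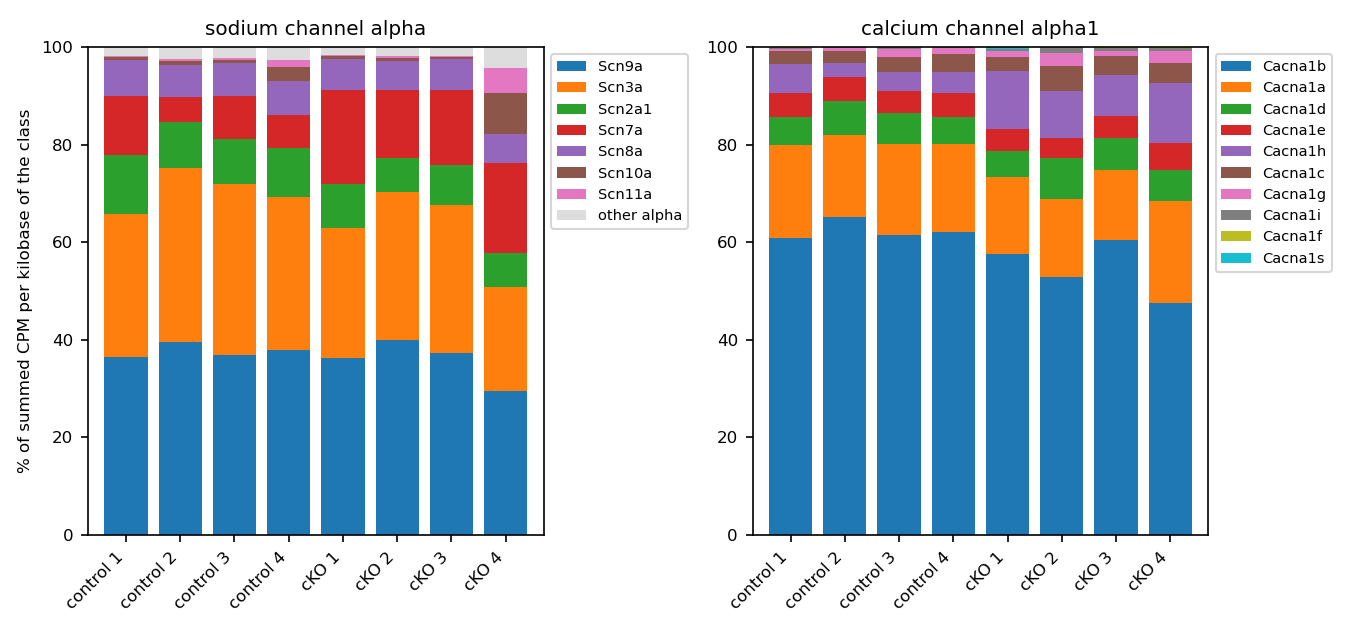
Share of each of 7 sodium channel alpha genes, with the rest of that class in grey (left), and of each calcium channel alpha1 gene (right) in the summed CPM per kilobase of its class, 1 stacked bar per library. Cacna1b takes between 60.9% and 65.1% of the alpha1 bar in control libraries and between 47.5% and 60.4% in cKO libraries, and Scn10a and Scn11a are visible in control 4 and cKO 4.

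The auxiliary calcium channel subunits were each led by a single gene. Cacna2d1, the alpha2delta subunit bound by gabapentin, held between 60.5% and 61.4% of the alpha2delta level per kilobase in control and between 51.8% and 62.4% in cKO libraries. It had 303, 275, 207 and 256 CPM in control and 224, 176, 209.8 and 177 CPM in cKO libraries. All cKO libraries lay below the control mean of 260.3 CPM, and cKO 1 and cKO 3 lay above control 3 (log2 fold change -0.40, SE 0.14, edgeR adjusted p = 0.154). Cacna2d2, another gabapentin-binding subunit, had 92.0, 65.5, 49.9 and 66.6 CPM in control and 56.9, 32.2, 50.7 and 47.4 CPM in cKO libraries (log2 fold change -0.55, SE 0.21, edgeR adjusted p = 0.203). Cacna2d3 had 38.1, 49.7, 36.6 and 42.8 CPM in control and 50.1, 39.2, 42.2 and 63.8 CPM in cKO libraries, with a positive log2 fold change of 0.22 (SE 0.16). The groups overlapped for all 3 genes. Cacna2d4 had at most 3 counts in any library.

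Cacnb3 led the intracellular beta subunits with between 79.4% and 83.6% of their level per kilobase in each of the 8 libraries. It was the second of all 40 members per length, at 65.4 ± 4.76 CPM per kilobase in control ganglia (SD, n = 4). Cacnb3 had 282, 236, 266 and 265 CPM in control and 226, 189, 238 and 226 CPM in cKO libraries. Only cKO 3 exceeded a control library, control 2, and the log2 fold change of -0.26 (SE 0.10) did not pass in edgeR (adjusted p = 0.239). Cacnb1 had 64.7, 51.2, 52.1 and 62.8 CPM in control and 56.3, 32.4, 50.1 and 45.7 CPM in cKO libraries (log2 fold change -0.32, SE 0.16). Cacnb4 had 24.2, 28.1, 21.1 and 26.3 CPM in control and 17.7, 17.9, 19.7 and 22.7 CPM in cKO libraries (log2 fold change -0.36, SE 0.13, edgeR adjusted p = 0.192). For each gene a single cKO library lay inside the control range, cKO 1 for Cacnb1 and cKO 4 for Cacnb4. Cacnb2, the beta subunit of heart muscle, was low at 2.00 ± 0.571 and 2.33 ± 0.480 CPM (SD, n = 4), with a log2 fold change of 0.23 (SE 0.26).

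Cacng5, a gamma family protein that also modulates AMPA receptors, fell in cKO ganglia. It lies on chromosome 11 from 107874605 to 107915055 on the minus strand (GRCm38), next to Cacng4 and Cacng1. Cacng5 had 66.5, 56.6, 60.4 and 60.2 CPM in control 1 to 4. In cKO 1 to 4 it had 45.3, 35.3, 44.8 and 40.1 CPM. All cKO libraries were below all control libraries, with means of 60.9 ± 4.11 and 41.4 ± 4.66 CPM (SD, n = 4). The log2 fold change was -0.56 (SE 0.11, edgeR adjusted p = 0.0272), or 0.679 of the control level, and the exact permutation test again gave its lower limit, p = 0.0286. The call held without control 1 (edgeR adjusted p = 0.0425) or cKO 1 (0.0299). It was lost without control 2 (0.0772), control 3 (0.0562), control 4 (0.0966), cKO 2 (0.069), cKO 3 (0.0627) or cKO 4 (0.0555). With 1 library left out the log2 fold change lay between -0.62 and -0.49.

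None of the other tested gamma family genes passed, though the log2 fold change of Cacng8 (-0.57) was as large as that of Cacng5 (-0.56). Cacng1 and Cacng6 had too few counts to be tested. Cacng3, an AMPA receptor auxiliary protein and the highest of the family, had 93.7, 108.8, 106.3 and 110.0 CPM in control and 92.8, 122.6, 109.6 and 111.3 CPM in cKO libraries (log2 fold change 0.06, SE 0.11). Cacng4 had 62.2, 46.0, 35.1 and 48.3 CPM in control and 58.5, 39.8, 51.9 and 39.0 CPM in cKO libraries (log2 fold change -0.02, SE 0.19). Groups overlapped for both. Cacng2, the stargazin gene, Cacng7 and Cacng8 had log2 fold changes of -0.31 (SE 0.19), 0.06 (SE 0.33) and -0.57 (SE 0.31), and none passed. Cacng5 took between 20.1% and 22.5% of the gamma family level per kilobase in control and between 13.3% and 15.9% in cKO libraries. Cacng6 had 0 counts in every library, which allows up to 0.166 CPM in the deepest and 0.185 CPM in the shallowest library (3 counts of the total, counting error only).

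Many channel genes moved together across libraries in a way that did not follow the groups. Of the 4 control libraries, control 3 was the lowest for 20 of the 33 tested members (60.6%) and for 31.1% of all tested genes. Of the 4 cKO libraries, cKO 2 was the lowest for 24 members (72.7%) and for 26.7% of all genes. Control 1 and cKO 1 were each the highest of their group for 18 members (54.5%), against 35.3% and 31.5% of all genes. The median deviation of the members from their group mean was -0.336 in control 3 and -0.334 in cKO 2 on the log2 CPM scale, and 0.188 in control 1 and 0.196 in cKO 1. For 1912 other tested genes with at least 8764 bases of merged exons, the median length of the tested members, it was -0.186 in control 3, -0.114 in cKO 2, 0.109 in control 1 and 0.181 in cKO 1. For 11663 shorter genes it stayed between -0.033 and 0.04 in all 8 libraries. What part transcript length plays in the channel values was not tested.

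Scn10a and Scn11a stood apart in the libraries numbered 4. They encode NaV1.8 and NaV1.9, the tetrodotoxin-resistant channels of pain fibres, and lie side by side on chromosome 9 from 119608456 to 119825456 (GRCm38). Scn10a had 3.19, 4.89, 3.04 and 15.0 CPM in control and 2.80, 2.09, 2.27 and 38.0 CPM in cKO libraries. Scn11a had 0.736, 1.38, 0.859 and 5.29 CPM in control and 1.09, 0.717, 0.795 and 17.6 CPM in cKO libraries. In both genes the library numbered 4 was the highest of each group, and for Scn4b 18 of 22 control and 51 of 60 cKO counts were in those libraries.

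The positive log2 fold changes of these genes rested on cKO 4: 0.80 (SE 0.97) for Scn10a and 1.30 (SE 1.06) for Scn11a. Without cKO 4 they were -1.45 and -1.24, and neither passed either way. The 10 sensory neuron markers summed to 66.4 CPM in control 4 and 153 CPM in cKO 4, and to between 32.1 and 50.8 CPM in the other 6 libraries. P2rx3, a purinergic receptor of these neurons, had 36.5 CPM in control 4 and 90.2 CPM in cKO 4, and between 12.8 and 34.7 CPM elsewhere. Avil had 19.5 and 37.7 CPM in those libraries and between 5.31 and 13.9 CPM in the others. Pou4f1, a sensory neuron transcription factor, was at 2.75 CPM in cKO 4 and at or below 0.426 CPM in the others, with 0 in control 2. Prrxl1, another such factor and the marker with the smallest p, did not follow libraries 4: it had between 0.429 and 0.790 CPM in control and between 0.917 and 2.67 CPM in cKO libraries, the highest in cKO 3 (log2 fold change 1.35, SE 0.39, edgeR adjusted p = 0.0976). Calca was highest in control 1 and cKO 1 (1.35 and 1.49 CPM, against 0.486 and 0.701 CPM in the libraries numbered 4), Mrgprd in control 3 and cKO 2, and Runx1 in control 1 and cKO 4. The part of sensory neurons in these values was not tested. Scn2b and Cacng5 had log2 fold changes of -0.83 and -0.55 without control 4 and cKO 4, and neither passed in that smaller set (edgeR adjusted p = 0.0711 and 0.176).

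**Figure D5:**
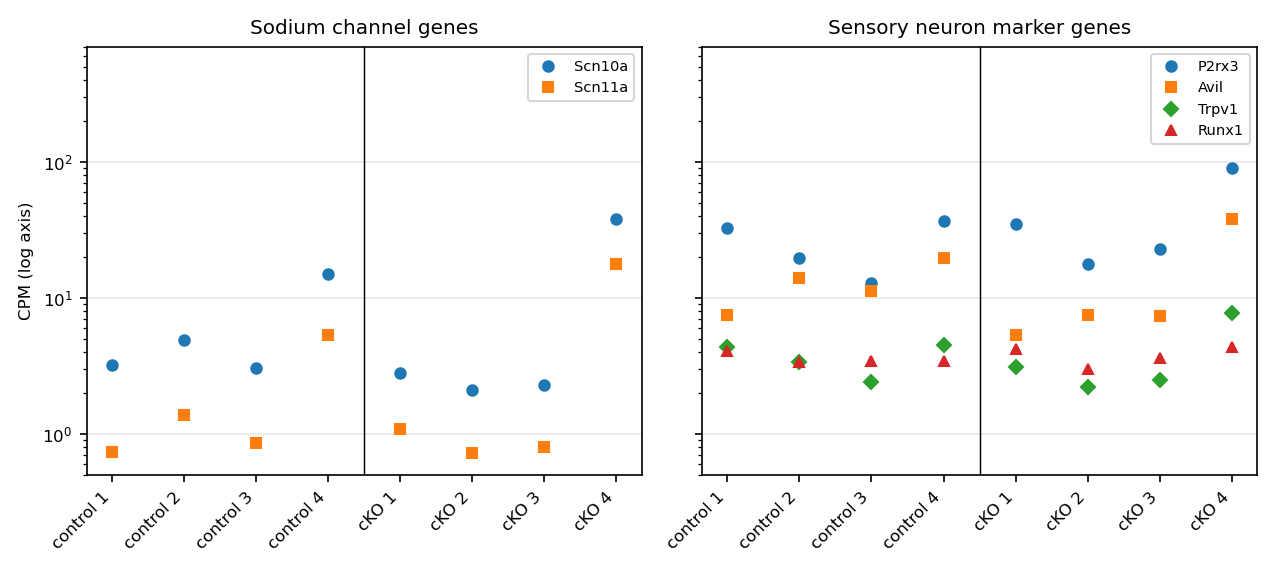
CPM on a log axis in the 8 libraries for Scn10a and Scn11a (left) and for the sensory neuron markers P2rx3, Avil, Trpv1 and Runx1 (right). Control 4 and cKO 4 are the highest of their groups for Scn10a, at 15.0 and 38.0 CPM, and for P2rx3, at 36.5 and 90.2 CPM.

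Skeletal muscle members were near the limit of detection. Scn4a, the muscle sodium channel gene, had 1, 1, 1 and 4 counts in control and 4, 3, 4 and 5 in cKO libraries. Cacna1s, the voltage sensor of muscle contraction, had 3, 0, 1 and 2 counts in control and 9, 0, 0 and 1 in cKO libraries. Cacng1, the gamma subunit of that channel, had 15, 6, 4 and 7 counts in control and 30, 9, 21 and 10 in cKO libraries. Cacna1s and Cacng1 were highest in control 1 and cKO 1 of their groups. In these libraries the 13 skeletal muscle markers summed to 76.9 and 209.8 CPM, against between 25.5 and 35.4 CPM in the other 6. Acta1 made up 35.5 and 109 CPM of these sums, and Tnnt3, Tnnc2 and Mylpf were also highest there. Tnni1 did not follow, at 10.1 and 8.74 CPM against between 8.46 and 15.8 CPM in the other 6. Among the markers Actc1 and Mylpf had the smallest p (log2 fold changes 1.16, SE 0.49, and 1.44, SE 1.00), neither of which passed. Myod1 was at 0 in all libraries but cKO 1, and the part of muscle in these counts was not tested.

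Genes known to anchor, inactivate or modulate these channels were read from a list of 55, of which 54 were in the table and tested. None passed in edgeR. At an unadjusted p below 0.05, which 16.8% of all tested genes had, 9 had a negative and 3 a positive log2 fold change. DESeq2's Wald test passed 3, Camk2b, Camk2d and Stx1a, all lower in cKO ganglia, where it passed 6.94% of all genes. The median log2 fold change of the list was -0.209, with 44 negative and 10 positive values. Without overlap 4 genes of the list were lower and 1 was higher, where 5.02% and 6.00% of all tested genes were. Camk2b, a calcium-calmodulin kinase subunit that phosphorylates both channel families, had 161, 144, 137 and 153 CPM in control and 114, 91.3, 115 and 125 CPM in cKO libraries. These did not overlap (log2 fold change -0.42, SE 0.11, edgeR adjusted p = 0.0821). Camk2d had 234, 249, 214 and 222 CPM in control and 183, 177, 191 and 189 CPM in cKO libraries, also without overlap (log2 fold change -0.31, SE 0.09, edgeR adjusted p = 0.0959). The sympathetic neuron markers also had a negative median log2 fold change, -0.121, with 10 negative and 4 positive values. Their sum was highest in control 3, at 22220 CPM, and lowest in cKO 1, at 17574 CPM. Among the channel members, control 3 was the lowest control library for 20 of 33 and cKO 1 the highest cKO library for 18. The part of the sympathetic neuron markers in the channel and partner values was not tested.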

How the data were processed

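Polyadenylated RNA of superior cervical ganglia from 4 control and 4 cKO mice was sequenced from TruSeq v2 libraries, per the labels' protocols. The authors deposited 1 table of read counts per gene symbol, whole numbers with a different total in each library and no normalization visible in them. STAR and the mm10 genome are named in the submitters' processing notes. Of its version, the counting program, the annotation and the strand setting nothing is given in the sources used here, so reads shared by overlapping or similar genes may have been split or dropped. Total counts were 16214912 to 18114418.

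The counts of 14592 genes kept by filterByExpr went into a robust quasi-likelihood fit with group as its single term (edgeR 4.0.16, R 4.3.3, TMM). A gene passed at a Benjamini-Hochberg adjusted p below 0.05. The SE is the absolute log2 fold change over the square root of F. Coordinates and merged exon lengths come from GENCODE vM21 (GRCm38), which matched all 40 members, Scn2a1 through a RefSeq synonym. Lengths include exons that these ganglia may not use. Members, the partner list and the marker lists were chosen with earlier results of these data known. Per-library values were given by rule for members that passed or did not overlap, the 3 highest of each role per kilobase, the sensory and muscle genes and Cacna1b, Cacna1c and Cacna1d. Scn7a, Cacna1h, Cacna1g and Scn4b were added after their values were seen, as were Stx1a, Th, Dbh, Avil, Pou4f1, Calca, Mrgprd, Runx1 and Myod1. The fit was tested on simulated data, counts drawn from its own means and dispersions. It recovered 22.4% of 1.5-fold, 76.1% of 2-fold and 97.0% of 4-fold changes. A member that did not pass may therefore still differ, above all below 2-fold. All 40 members enter the counts, medians and class sums, and 2 of them are not reported by name here. DESeq2 1.42.0 was an alternative, and figures used matplotlib 3.10.9.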

Additional observations from a re-analysis of the deposited data

Results flagged for a closer look

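Of 62 groups of 4 libraries checked (31 members, 2 groups each), 6 held a library far from the other 3, where chance gives about 1 in 20. Most of these were libraries numbered 4. Scn10a stood at 15.0 CPM in control 4 (others 3.04 to 4.89) and at 38.0 CPM in cKO 4 (others 2.09 to 2.80). Scn11a stood at 5.29 CPM in control 4 (others 0.736 to 1.38) and at 17.6 CPM in cKO 4 (others 0.717 to 1.09). Scn2b was at 60.7 CPM in control 2 (others 50.5 to 51.7), and Cacnb2 at 1.15 CPM in control 3 (others 2.21 to 2.37).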

How the results depend on the processing

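The call of Scn2b and Cacng5 held with the size factors of DESeq2, with library size alone, with at least 1 count in total and with 1 CPM in at least 4 libraries. The number of members called was 4 in DESeq2's Wald test and without control 1 and cKO 1, where Scn7a and Cacna1h were added, and 0 without control 4 and cKO 4. With 1 library left out it ranged from 0 to 4. The number of all genes called was 1012 in DESeq2's Wald test and 65 without control 4 and cKO 4, and ranged from 74 to 514 with 1 library left out. Scaling by library size alone called 343 higher and 145 lower genes, against 234 and 163. DESeq2's Wald test called 3 partner genes. The member median, -0.167, lay between -0.283 and -0.034 with 1 library left out and at -0.018 with at least 1 count in total, where 39 members were tested.

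The number in the sample label was also used as a replicate block. It gave 4 members and 687 genes, and log2 fold changes of 0.99 for Scn7a (edgeR adjusted p = 0.00564) and 1.12 for Cacna1h (adjusted p = 0.00486). Same-numbered libraries correlated in their deviations at 0.725, 0.352, -0.302 and 0.265 for numbers 1 to 4. The labels tie the numbers to no litter, batch or day, and control 3 correlated best with cKO 2 (0.404), so the numbers were not treated as pairs.

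Of 31 tested members 24 kept their sign in all 16 settings. Without control 4 and cKO 4 the reversed values were -0.63 for Scn10a, -0.19 for Scn11a and 0.07 for Cacng4. Cacng4 was at 0.03 with library size alone and 0.02 without control 1 and cKO 1, where Mylpf was at -0.03. With 1 library left out, ranges that crossed 0 were -0.17 to 0.02 (Scn3b), -0.21 to 0.0007 (Cacna1d), -0.15 to 0.13 (Cacng4), -0.0026 to 0.12 (Cacng3), -1.24 to 2.35 (Scn11a), -0.28 to 0.33 (Cacng7), -1.45 to 1.61 (Scn10a), -0.02 to 0.96 (P2rx3) and -0.92 to 2.32 (Mylpf). The cause of these shifts was not tested. Low counts kept 7 members from being tested.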
